A study of Homo sapiens with 16 samples.

Results

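The ubiquitin-specific proteases (USPs) are the largest family of deubiquitinases in human cells. They were taken here as every entry of the count table whose symbol is USP followed by a number, with or without X or Y, and the 1 entry of the multicopy USP17 genes was left out. This gave 51 genes of the 19077 entries in the table. All 51 passed the filter on low counts in each of the 9 comparisons below, so no member is missing from any count.

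Ubiquitin is a small protein that is attached to other proteins as a single unit or as chains, and the attachment decides whether the target is degraded by the proteasome, moved through endosomes or changed in activity. USPs are cysteine proteases that cut ubiquitin off again. Most are known for a few targets: some act on histones and DNA repair proteins in the nucleus, some on receptors at endosomes, and some recycle ubiquitin at the proteasome. A microRNA (miRNA) guides the RNA-induced silencing complex (RISC) to mRNAs that pair with its seed, the bases 2 to 8 from its 5′ end.

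RNA held by RISC was sequenced in 16 libraries from HEK 293 cells, a transformed line from human embryonic kidney. In the RISC-trap method a dominant-negative form of the RISC protein GW182 keeps target mRNAs on the complex, which is then precipitated, and the labels name this method for all 16 libraries. Each of 6 miRNAs was trapped in 2 libraries, with the labels mir550-3p, mir1271-5p, mir1180-3p, mir3613-5p, mir1301-3p and mir1260a-5p. For mir124-3p there was 1 library titled Solid and 3 titled Illumina. No library without a miRNA is named in the labels, so a USP mRNA that is recovered in every pulldown cannot be told from background, and each value below is relative to other pulldowns. No library of input RNA is named either, so more of an mRNA in the cells and more of it on RISC cannot be told apart. Which sequencer read the 12 libraries of the 6 miRNAs is not stated in the sources used here. The protocol names a SOLiD kit for all 16 libraries, those titled Illumina included. The descriptions of both mir550-3p libraries and of replicate 2 of mir1301-3p hold "bio" with a number, which the labels do not explain. No label states that libraries came from separate cultures, so p-values measure the spread between these libraries, which may be technical.

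The mature sequences of the miRNAs named by the labels are given with the seed in capitals. They were looked up by name, and 6 of the 7 miRNA labels matched an entry in RefSeq (GRCh38.p14).
hsa-miR-1180-3p: uUUCCGGCucgcgugggugugu
hsa-miR-1260a: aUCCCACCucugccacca
hsa-miR-1271-5p: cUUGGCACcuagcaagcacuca
hsa-miR-1301-3p: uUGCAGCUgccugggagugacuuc
hsa-miR-3613-5p: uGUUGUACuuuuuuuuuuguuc
hsa-miR-550a-3p: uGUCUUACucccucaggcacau
The 6 seeds all differ, so no pair of these pulldowns shares one. miR-1271-5p has the seed of miR-96-5p, miR-1260a that of miR-1260b, miR-1301-3p that of miR-5047 and miR-550a-3p that of miR-200c-5p. RefSeq gives miR-1260a without an arm, where the label reads mir1260a-5p, and mir550-3p was matched to miR-550a-3p through its description. The mature miR-1180-3p lies at chr17:19344513-19344534 on the minus strand, miR-1260a at chr14:77266231-77266248 on the plus strand, and miR-1271-5p at chr5:176367960-176367981 on the plus strand. The position of miR-1301-3p is chr2:25328651-25328674 on the minus strand and that of miR-3613-5p is chr13:49996465-49996486 on the minus strand. For miR-550a-3p 2 loci were matched, chr7:29680748-29680769 on the minus strand (MIR550A3) and chr7:32733041-32733062 on the plus strand (MIR550A2).

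Total counts per library ran from 7612758 to 26527365, and a count of 0 (a limit of 3 counts) allowed up to between 0.138 and 0.347 CPM (normalised read counts per 1000000 counts), for counting error only. The 51 USP genes took between 0.385% and 0.586% of all counts in the 12 libraries of the 6 miRNAs, 0.365% in mir124-3p Solid and between 0.245% and 0.258% in the Illumina libraries. Of 9 genes typical of HEK 293, 7 stood at 1 CPM or more in all 16 libraries. Marker genes of fibroblasts (COL1A1, COL3A1, DCN, LUM) summed to between 36.2 and 113 CPM in the mir1301-3p libraries and to between 4.57 and 14.9 CPM in the other 10. Those of keratinocytes (KRT5, KRT14) summed to between 4.92 and 16.9 CPM against 0.828 to 4.86 CPM. No gene of these lists or of those for blood and liver was at 0 in all libraries.

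Across the 12 libraries of the 6 miRNAs the highest value of a USP gene was between 1.73-fold (USP25) and 51.5-fold (USP20) its lowest. The median standard deviation (SD) of log2 CPM was 0.49 for the USP genes and 0.62 for all genes tested, where the median of the mean level was 44.3 CPM for the USP genes and 13.4 CPM for all, so the USP genes had more counts behind them. The steadiest was USP25, a cytoplasmic protease that acts in innate immune signalling and in degradation at the endoplasmic reticulum, with 121 CPM in the lowest library, a median of 148 and 209 in the highest. It was followed by USP30 of the outer mitochondrial membrane, USP46, the histone protease USP22 and USP7, which stabilises the p53 regulator MDM2, each with an SD of at most 0.31 on the log2 scale. At the other end USP20, a protease of receptors and signalling adaptors, ranged from 4.68 to 241 CPM, a 51.5-fold range. USP29, a paternally expressed imprinted gene, ranged from 2.49 to 49.3 CPM (19.8-fold), USP51 from 7.02 to 96.6 CPM (13.8-fold) and USP19, a protease of the endoplasmic reticulum and cytosol, from 3.04 to 30.6 CPM (10.1-fold).

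**Figure D1:**
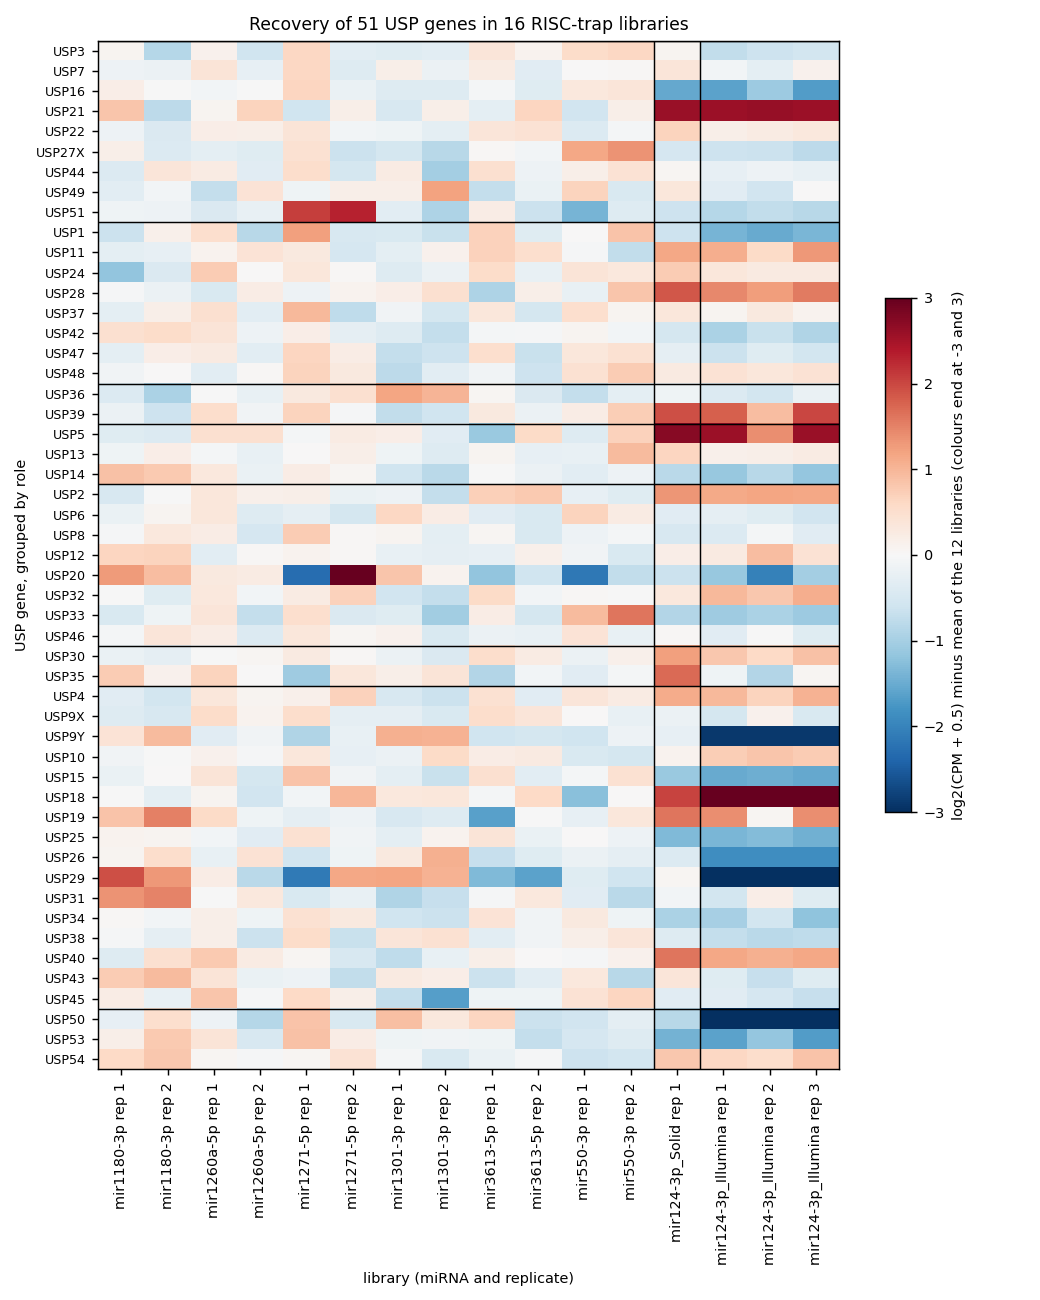
Recovery of the 51 USP genes (rows, grouped by role with lines between groups) in the 16 libraries (columns), as log2(CPM + 0.5) minus the mean of the 12 libraries of the 6 miRNAs; colours end at -3 and 3. The USP51 row is red in both mir1271-5p libraries, the USP20 row is red in 1 of them and blue in the other, and the rows of USP26, USP29, USP50 and USP9Y are blue in the 3 Illumina libraries.

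Part of this spread lay between the 2 libraries of a miRNA. In mir1260a-5p 20 of 51 USP genes were at least 1.5-fold higher in replicate 1 and 3 in replicate 2, where the shares over all genes were 20.8% and 20.1%. In mir1271-5p 18 were higher in replicate 1 and 6 in replicate 2 (22.2% and 25.7% of all genes). For mir3613-5p the counts were 12 and 6 (17.2% and 21.5% of all genes) and for mir550-3p 4 and 9 (10.8% and 17.6%). For mir1180-3p they were 4 and 7 (16.1% and 16.7%) and for mir1301-3p 6 and 4 (15.02% and 17.1%). USP1, which removes ubiquitin from FANCD2 and PCNA in DNA repair, shows the pattern. It stood at 1202 and 477 CPM in mir1260a-5p, 2007 and 605 in mir1271-5p and 1383 and 656 in mir3613-5p, against 547 and 946 in mir1180-3p, 614 and 532 in mir1301-3p and 855 and 1547 in mir550-3p. Its order by miRNA mean was led by mir1271-5p and ended with mir1301-3p, but the ranges of the libraries overlapped, and no comparison called it.

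Of the 9 proteases of histones H2A and H2B, USP51 and USP27X were called with 1 of the 6 miRNAs each and the others with none. USP51 was recovered at 82.9 and 96.6 CPM with mir1271-5p. It stood at 17.6 and 17.1 CPM with mir1180-3p, 14.1 and 16.3 with mir1260a-5p, 15.3 and 9.89 with mir1301-3p, 22.4 and 12.1 with mir3613-5p and 7.02 and 14.6 with mir550-3p. Both mir1271-5p libraries were thus far above the other 10, which lay close together, and the mir124-3p libraries (12.3 CPM in Solid, 10.3 to 11.3 in Illumina) were among the low ones. The mean of 89.7 ± 9.69 CPM (SD, n = 2) against 14.6 ± 4.28 (n = 10) gave a log2 fold change of 2.69 ± 0.28 (standard error; edgeR adjusted p = 0.00012). USP51 was also called in the test for any difference among the 6 miRNAs (adjusted p = 0.000485). Both calls held without any single library, the first with log2 fold changes between 2.60 and 2.81. At -1.08 with mir550-3p, where its libraries overlapped the others, it did not pass (adjusted p = 0.147), while DESeq2 called it lower (-1.04, adjusted p = 0.0458). The reference of these 2 values holds the high mir1271-5p libraries.

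USP51 was the 1 member of 51 higher with mir1271-5p, where 0.606% of all genes were; none was lower. It was also the 1 member whose mir1271-5p libraries both lay outside the range of the other 10, against 3.21% of all genes. The median log2 fold change of the USP genes was 0.25 against 0.05 for all genes tested. With upper-quartile scaling the median of all genes moved by -0.24 and stood at -0.19, and that of the USP genes stood at -0.00. USP20 had the next smallest p: 4.68 CPM in replicate 1 and 241 CPM in replicate 2 of mir1271-5p, so that its value of 2.39 (adjusted p = 0.139) turned to -2.24 without replicate 2. The scaffold-like USP53 of tight junctions stood at 129 and 81.2 CPM against 42.7 to 121 in the other 10 and did not pass (0.74, adjusted p = 0.447). Without replicate 1 of mir1271-5p 2 members were called.

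USP27X, which with USP51 and USP22 shares the adaptor subunits ATXN7L3 and ENY2, differed with another miRNA. It stood at 34.1 and 38.6 CPM with mir550-3p. The other 10 libraries ran from 8.20 to 20.5 CPM with a mean of 12.9 ± 3.79, and the mir124-3p libraries from 8.43 to 10.3. The groups did not overlap, and the log2 fold change was 1.47 ± 0.31 (adjusted p = 0.0237). USP22, the form of this trio that works in the SAGA coactivator complex, ran from 96.6 to 177 CPM over the 12 libraries and was called with no miRNA; its values lay between -0.46 with mir1180-3p (adjusted p = 0.469) and 0.57 with mir3613-5p (adjusted p = 0.315). ATXN7L3 ran from 10.5 to 44.5 CPM and ENY2 from 77.7 to 196 CPM. Neither was called with any of the 6 miRNAs, with the smallest adjusted p at 0.222 and 0.347.

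The other histone proteases were called with none of the 6 miRNAs. Over the 12 libraries USP16, which removes ubiquitin from H2A before mitosis, ran from 282 to 577 CPM with a median of 359. USP21, which acts on H2A and on signalling adaptors, ran from 8.89 to 28.3 CPM (median 17.1). USP3, also an H2A protease, ran from 29.8 to 83.7 CPM (median 58.0) and USP7 from 48.9 to 99.0 (median 61.1). USP44, which acts on H2B and in the mitotic checkpoint, ran from 21.0 to 62.8 CPM (median 50.2), and the H2B protease USP49 from 0.759 to 4.28 CPM (median 1.43). In each of these 6 the libraries of the different miRNAs overlapped, except that both mir1301-3p libraries of USP16 (each 282 CPM) were the lowest of the 12 (-0.47, adjusted p = 0.235).

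**Figure D2:**
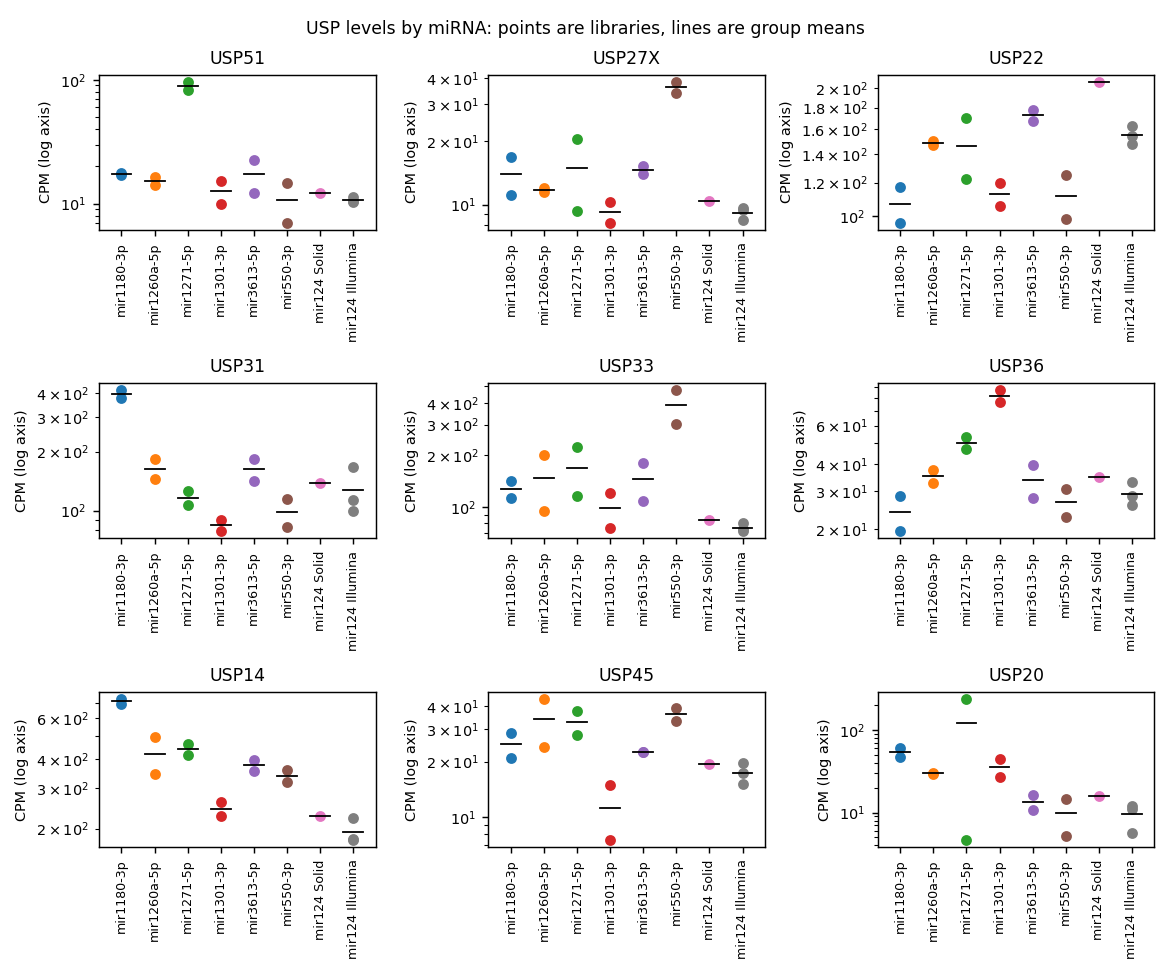
CPM on a log axis of 9 USP genes by miRNA, where each point is a library and each line a group mean. USP51 stands apart with mir1271-5p (82.9 and 96.6 CPM), USP27X and USP33 with mir550-3p, USP31 with mir1180-3p and USP36 with mir1301-3p, while USP22 stays between 96.6 and 177 CPM in the 12 libraries and the mir1271-5p points of USP20 lie at 4.68 and 241 CPM.

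USP33 was the second member higher with mir550-3p. It binds the von Hippel-Lindau protein and acts on receptors at the cell surface, among them the axon guidance receptor ROBO1. It stood at 301 and 476 CPM with mir550-3p, and the other 10 libraries lay between 75.5 and 221 CPM with a mean of 137 ± 48.1. The mean of 388 ± 124 CPM (n = 2) gave a log2 fold change of 1.48 ± 0.30 (adjusted p = 0.0188), with no overlap of the groups. Its closest relative USP20 stood at 5.17 and 14.6 CPM with mir550-3p, within the range of the other 10, and did not pass (-2.05, adjusted p = 0.245).

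USP27X and USP33 were thus the 2 of 51 higher with mir550-3p, where 1.20% of all genes were higher, and none was lower. For 4 members both mir550-3p libraries lay outside the other 10, against 7.72% of all genes. The other members of these 4, chosen after their values were seen, were USP10 (85.0 and 80.6 CPM against at least 97.6) and USP54 (7.68 and 8.11 against at least 8.73), which did not pass (adjusted p = 0.289 and 0.257). Neither call held with fewer mir550-3p libraries: without replicate 1 USP33 was at 1.73 (adjusted p = 0.108) and USP27X at 1.497 (0.227), and without replicate 2 at 1.18 (0.442) and 1.44 (0.365). The call of USP27X ended, too, when replicate 2 of mir1180-3p was left out (1.41, adjusted p = 0.0504), and both lost theirs with mir1301-3p left out of the reference (USP33 1.36, adjusted p = 0.0557; USP27X 1.35, adjusted p = 0.0629). The median of the USP genes was -0.04 against -0.05 for all genes.

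With mir1180-3p 1 USP gene was higher. USP31, a little-studied protease reported to restrain NF-kB signalling, stood at 376 and 412 CPM with mir1180-3p. The other 10 libraries ran from 78.5 to 183 CPM with a mean of 125 ± 38.0, so the groups were well apart. The log2 fold change was 1.59 ± 0.24 (adjusted p = 0.000485), and it held without any single library (1.54 to 1.68). USP31 was also called in the test among the 6 miRNAs (adjusted p = 0.00554), though not when replicate 1 or replicate 2 of mir1180-3p was left out (adjusted p = 0.0504 and 0.0613).

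Of the 51 members 1 was higher with mir1180-3p, beside 1.92% of all genes, and 0 were lower. An unadjusted p under 0.05 was reached by 11 members and by 13.7% of all genes. Members whose mir1180-3p libraries lay outside the other 10 numbered 9, of which 8 lay above, against 5.02% of all genes. The proteasome-bound USP14, which trims ubiquitin chains from substrates as they are degraded, was among them with 728 and 689.7 CPM against 226 to 496 (0.88, adjusted p = 0.059). It was called by DESeq2 (0.95, adjusted p = 0.00813), without the filter on low counts (0.99, adjusted p = 0.0214 by edgeR), with upper-quartile scaling (1.04, adjusted p = 0.0082) and with the replicate number as a block (0.89, adjusted p = 0.0398). USP29 stood at 49.3 and 31.6 CPM against 2.49 to 29.0 (1.76, adjusted p = 0.0637). USP29 was called by DESeq2 (1.81, adjusted p = 0.0203), without the filter (1.85, adjusted p = 0.0414), with upper-quartile scaling (1.88, adjusted p = 0.0449), with mir1301-3p left out of the reference (2.08, adjusted p = 0.0244) and against miRNAs with the same style of description (2.07, adjusted p = 0.0413). The median of the USP genes was -0.18 against -0.07 for all genes. Leaving out single libraries moved the count of members higher to 4 without replicate 1 of mir1260a-5p, 3 without replicate 1 or 2 of mir1271-5p, and 2 without replicate 2 of mir3613-5p.

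The mir1301-3p libraries had the most calls among the 6 miRNAs, in the USP genes as in the whole table. USP36, a nucleolar protease needed for making ribosomes, stood at 87.3 and 77.4 CPM with mir1301-3p. The other 10 libraries ran from 19.6 to 53.3 CPM (mean 33.9 ± 10.5). The groups did not overlap, and the log2 fold change was 1.34 ± 0.26 (adjusted p = 0.00859). USP36 was also called among the 6 miRNAs (adjusted p = 0.0262), but not without either replicate of mir1180-3p (0.0509 and 0.0819), mir1301-3p (0.112 and 0.0831) or mir550-3p (0.0852 and 0.0758).

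USP9Y stood at 7.28 and 7.04 CPM with mir1301-3p against 1.46 to 6.64 in the other 10 (1.43 ± 0.37, adjusted p = 0.0228). Its value is uncertain: USP9Y is a near copy of the X-linked USP9X, and its chromosome, Y, is one that HEK 293 cells are known to lack. USP9X itself ran from 116 to 239.9 CPM and was called with no miRNA.

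Members lower with mir1301-3p numbered 3. USP45, which acts on the repair nuclease subunit ERCC1, stood at 14.96 and 7.49 CPM with mir1301-3p and between 20.9 and 44.1 CPM in the other 10 (-1.40 ± 0.37, adjusted p = 0.0232). USP14 was at 262 and 226 CPM, below the range of 318 to 728 CPM in the other 10 (-0.84 ± 0.26, adjusted p = 0.0421). USP31 was at 78.5 and 89.8 CPM and overlapped the others, which reached down to 82.9 CPM (-0.95 ± 0.28, adjusted p = 0.0358). The reference of this last value holds the high mir1180-3p libraries, and with mir1180-3p left out it was -0.66 (adjusted p = 0.0965) and no longer called; USP14 was then at -0.69 (adjusted p = 0.0683). Against mir550-3p alone, the other miRNA whose descriptions are named in the same style, USP31 (-0.19), USP14 (-0.42) and USP9Y (1.65) were not called.

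For mir1301-3p 11.5% of all genes were higher and 4.39% lower, beside 2 and 3 of the 51 USP genes. For 8 members both libraries lay outside the other 10, of which 6 below, against 21.1% of all genes. The median of the USP genes was -0.33 against -0.02 for all genes. Upper-quartile scaling moved the median of all genes by 0.40, so that it stood at 0.38, and the USP median was then 0.07. With this scaling 8 members were higher and 1 lower, and USP31 (-0.56) and USP14 (-0.44) were not called. DESeq2 called 2 higher and 6 lower. The fibroblast and keratinocyte markers given above were highest in these libraries. Blood markers (9.02 to 9.45 CPM against 4.85 to 11.7 in the other 10) and liver markers (2.15 to 3.65 against 1.90 to 6.93) were not. The part of these markers in the result was not tested.

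All 5 mir1301-3p calls ended when either mir1301-3p library was left out. Without replicate 1 the values were 1.31 for USP36 (adjusted p = 0.0959), 1.46 for USP9Y (0.148), -1.91 for USP45 (0.095), -0.89 for USP14 (0.193) and -0.80 for USP31 (0.237). Without replicate 2 they were 1.35 (0.0719), 1.38 (0.166), -1.04 (0.213), -0.81 (0.229) and -1.13 (0.151). For USP31 the call ended, too, when either mir1180-3p library (-0.97 without replicate 1, -0.95 without replicate 2) or replicate 1 of mir550-3p (-0.90) was left out. For USP14 it ended when either library was left out of mir1180-3p (-0.84 and -0.87, replicate 1 given before replicate 2) or mir550-3p (-0.86 and -0.85), or when replicate 1 was left out of mir1260a-5p (-0.78) or mir3613-5p (-0.81). The count of members called was 11 without replicate 2 of mir1271-5p, and 3 without replicate 1 of mir550-3p or either mir1180-3p library.

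No USP gene was called with mir1260a-5p or mir3613-5p by edgeR. For mir1260a-5p 0.215% of all genes were called, no member reached an unadjusted p under 0.05 or lay outside the other 10 with both libraries (1.61% of all genes did), and DESeq2 called 0. The 3 members with the smallest p were USP40, a little-studied protease (24.7 and 16.7 CPM against 8.10 to 19.7; 0.61, adjusted p = 0.977), USP45 (44.1 and 24.1 CPM against 7.49 to 39.2; 0.50, adjusted p = 0.9997) and USP24, reported to act on DNA damage proteins (59.1 and 35.1 CPM against 15.1 to 51.7; 0.46, adjusted p = 0.9997). In each, replicate 1 was the highest of the 12 libraries and replicate 2 lay among the others.

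With mir3613-5p 0.0906% of all genes were called, 5 members and 14.1% of all genes reached an unadjusted p under 0.05, and DESeq2 called 1 member, USP29, lower. For 2 members both libraries lay above the other 10, against 4.88% of all genes that lay outside. USP2, a protease of MDM2 and of clock proteins, was at 56.3 and 58.6 CPM against 20.5 to 43.4 (0.996, adjusted p = 0.195). USP11, which acts in repair by homologous recombination, was at 84.8 and 74.2 CPM against 31.1 to 70.1 (0.79, adjusted p = 0.272). USP29 stood at 4.69 and 3.78 CPM, where the others ran from 2.49 to 49.3 (-1.94, adjusted p = 0.233).

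In the test for any difference among the 6 miRNAs 3 of 51 members were called, USP51, USP31 and USP36, beside 5.72% of all genes. The count was 1 without replicate 1 or 2 of mir1180-3p, 5 without replicate 1 of mir1260a-5p and 7 without replicate 1 or 2 of mir1271-5p. The 6 comparisons above share libraries through their references, so they are not independent of each other.

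**Figure D3:**
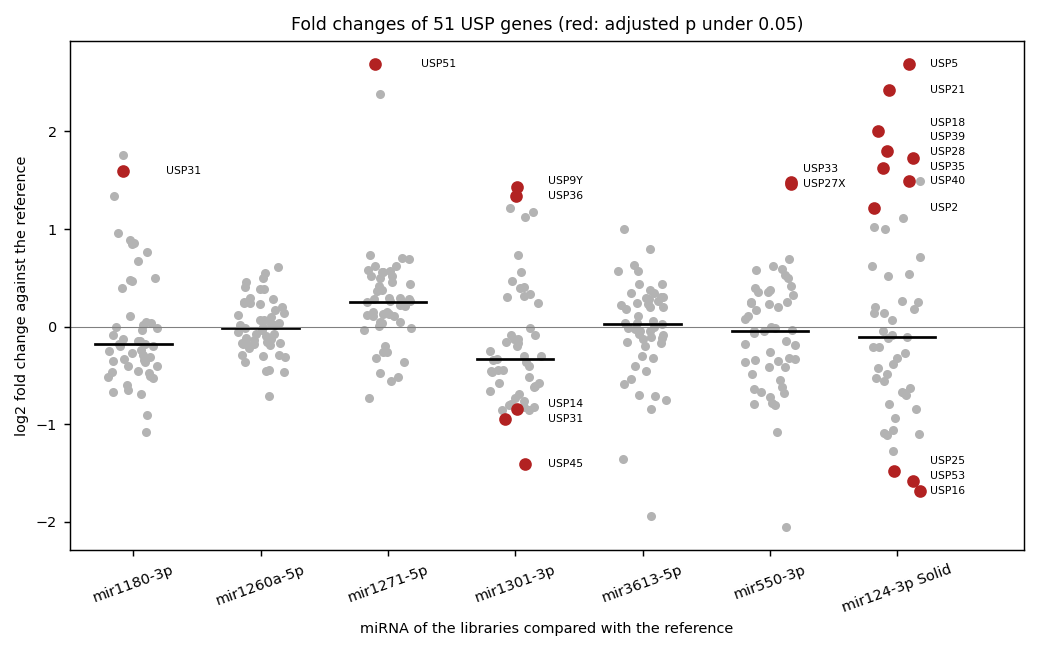
Log2 fold changes of the 51 USP genes for each of the 6 miRNAs against the other 5, and for mir124-3p Solid against the 6; each point is a gene, red points passed an adjusted p of 0.05 and black lines are medians. USP51 reaches 2.69 with mir1271-5p, the medians run from -0.33 with mir1301-3p to 0.25 with mir1271-5p, and 11 points are red for mir124-3p Solid.

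The reference for mir124-3p Solid was the mean of the 6 miRNAs, and since Solid is 1 library its spread was taken to be that of the other groups. Of the 51 USP genes 8 were higher, beside 7.31% of all genes, and 3 were lower, beside 1.58%. Near the proteasome USP5, which takes apart free ubiquitin chains, stood at 31.5 CPM, above the 12 libraries with their range of 1.73 to 7.24 CPM (2.69 ± 0.47, adjusted p = 0.00151). Its relative USP13 (56.2 CPM against 26.8 to 69.1) and USP14 (227 CPM against 226 to 728) did not pass. The histone protease USP21 was at 97.2 CPM against 8.89 to 28.3 (2.43 ± 0.44, adjusted p = 0.00215). The H2A protease USP16 was lower, at 127 CPM against 282 to 577 (-1.68 ± 0.43, adjusted p = 0.0206).

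In the nucleus, USP39, a splicing factor that has the USP fold but no protease activity, was at 168 CPM against 25.7 to 72.3 (1.80, adjusted p = 0.00332). USP28, which stabilises MYC and binds 53BP1, was at 77.9 CPM against 10.8 to 37.7 (1.73, adjusted p = 0.0115). USP18, which removes the ubiquitin-like ISG15 and whose near copy USP41 makes its counts uncertain, was at 16.8 CPM against 1.26 to 7.86 (2.01, adjusted p = 0.0171). Of the others higher, USP40 was at 43.8 CPM against 8.10 to 24.7 (1.49), USP35 of mitochondria at 19.1 CPM against 2.37 to 9.68 (1.63) and USP2 at 86.5 CPM against 20.5 to 58.6 (1.22). The lower ones beside USP16 were USP25, at 60.3 CPM against 121 to 209 (-1.48), and USP53, at 25.95 CPM against 42.7 to 129 (-1.58). All 11 stood outside the range of the 12 libraries, as did 19 of the 51 members in all and 5795 of the 18135 genes tested.

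The Illumina libraries are a second measurement with the same miRNA. For 10 of the 11 called members all 3 Illumina libraries lay outside the 12 on the side of Solid, and of all genes called for Solid 79.2% did so. USP21 stood at 95.0, 98.3 and 95.8 CPM and USP2 at 75.8, 77.5 and 76.6 CPM. USP5 stood at 28.2, 12.1 and 28.4 CPM and USP39 at 151, 83.0 and 176 CPM, with replicate 2 lowest in both. USP25 stood at 58.7, 62.1 and 55.6 CPM and USP16 at 121, 172 and 115 CPM, all below the 12. USP18 was higher still, at 54.8, 44.6 and 57.5 CPM. USP35 was the exception at 5.03, 2.75 and 5.71 CPM, inside the range of the 12. The titles of the 12 libraries name no platform, and miRNA and platform or preparation cannot be told apart in these values.

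Of the Solid calls, those of USP35, USP53, USP25 and USP2 ended without single libraries. In what follows the value without replicate 1 stands before that without replicate 2. For USP53 the call ended when either library was left out of mir550-3p (-1.58 each), mir1180-3p (-1.56 and -1.46), mir1301-3p (-1.59 and -1.57) or mir3613-5p (-1.52 and -1.56), or replicate 1 out of mir1260a-5p (-1.51). For USP35 it ended when either library was left out of mir550-3p (1.61 and 1.65) or mir1301-3p (1.60 and 1.66), replicate 2 out of mir1180-3p (1.65) or mir1260a-5p (1.58), or replicate 1 out of mir3613-5p (1.57). For USP25 it ended when either library was left out of mir550-3p (-1.46 and -1.501) or mir1180-3p (-1.40 and -1.41), or replicate 1 out of mir3613-5p (-1.42). The USP2 call ended without replicate 2 of mir550-3p (1.20), where 7 members were called in all. With upper-quartile scaling 6 members were higher and 6 lower, and USP2 (1.04) and USP35 (1.43) were not called; with mir1301-3p left out of the reference USP2 (1.13) and USP53 (-1.61) were not.

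**Figure D4:**
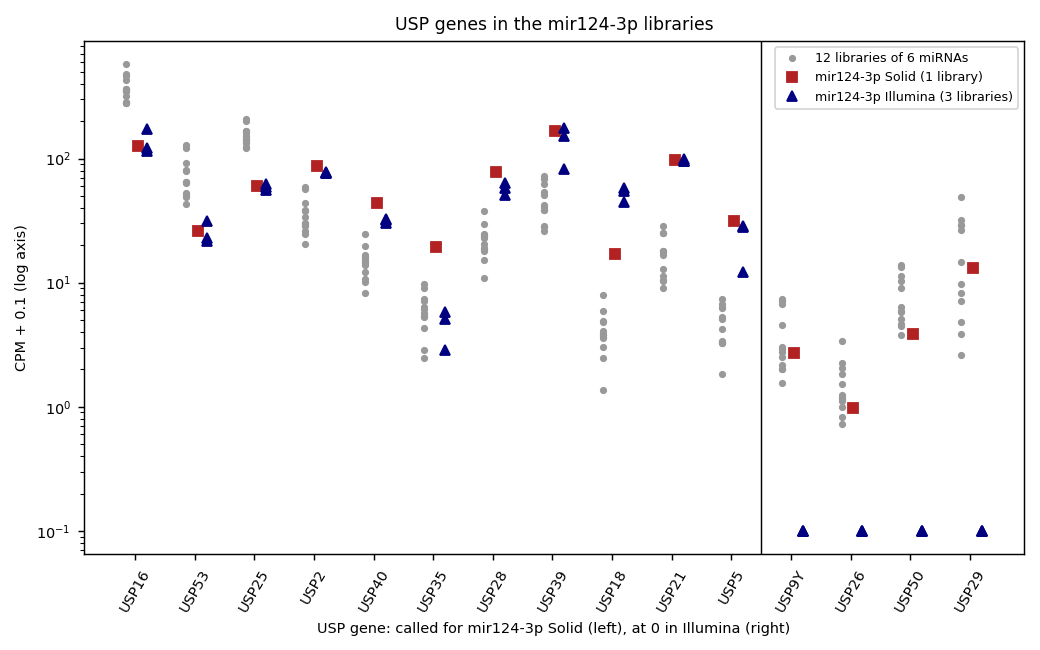
CPM + 0.1 on a log axis of the 11 USP genes called for mir124-3p Solid (left of the line) and of the 4 at 0 in the Illumina libraries (right), in the 12 libraries of the 6 miRNAs (grey), mir124-3p Solid (red square) and mir124-3p Illumina (blue triangles). For 10 of the 11 the triangles lie outside the grey points on the side of the square, and USP35 is the exception.

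Against Solid itself, the Illumina libraries had 5 USP genes lower, beside 19.5% of all genes, and 0 higher. Of these, 4 had a count of 0 in all 3 Illumina libraries, as did 7.90% of all genes with over 3 counts in Solid. USP29 had 164 counts in Solid (13.1 CPM) and was at least 76.9-fold lower, against a floor of 3 counts per Illumina library, or 0.170 CPM on average. USP50, a member without known protease activity that resembles USP8, had 47 counts (3.74 CPM) and was at least 22.0-fold lower. USP9Y had 33 counts (at least 15.5-fold) and the testis gene USP26 had 11 (at least 5.16-fold). All 4 were found in each of the 12 libraries of the 6 miRNAs, with between 9 and 591 counts. USP35 was the fifth, at 19.1 CPM in Solid and 4.50 ± 1.55 CPM (SD, n = 3) in Illumina (-2.07, adjusted p = 0.0113); its call ended without replicate 2 of Illumina (-1.53, adjusted p = 0.108) and without replicate 1 or 2 of mir1301-3p (-1.67 each). USP18, at 1.65 (adjusted p = 0.0586), and USP10, at 0.68 (adjusted p = 0.246), did not pass, while DESeq2 called both higher.

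Over the 9 comparisons 22 of the 51 USP genes were called at least once, beside 39.8% of all genes, and 29 never. The role lists hold each gene in 1 place, and USP45 stands under signalling and the cytoplasm though it acts on a repair protein. The 8 members listed under DNA repair and replication had 1 call, USP28 for mir124-3p Solid. Of the 8 at endosomes, receptors and the Golgi only USP33 and USP2 were called, and of the 16 in signalling and the cytoplasm 8 were: USP31, USP9Y, USP45, USP18, USP25, USP40, USP29 and USP26. The 9 histone proteases had 4 members with a call, USP51, USP27X, USP21 and USP16, each in 1 pairwise comparison.

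Other genes of the ubiquitin system were counted from lists of 41 deubiquitinases of other families, 12 USP cofactors, 11 ubiquitin and E1 genes and 35 E2 conjugating enzymes. None was called with mir1260a-5p or mir3613-5p. With mir550-3p, where 1.20% of all genes were higher, the list of other deubiquitinases had 2 higher and 0 lower: PSMD14, the deubiquitinase of the proteasome lid, rose from 216 to 635 ± 95.1 CPM (SD, n = 2; 1.55, adjusted p = 0.0138), and ZRANB1, which is known for cutting atypical chains, from 141 to 402 ± 20.3 CPM (1.503, adjusted p = 0.00386). Of the E2 genes UBE2Z rose by 1.74 (adjusted p = 0.00103) and UBE2S, which extends chains for the anaphase-promoting complex, fell by 1.92 on the log2 scale (adjusted p = 0.0254). Of 12 cofactors WDR20, a partner of USP12 and USP46, rose by 1.39 (adjusted p = 0.0414), while USP12 and USP46 were not called. Without replicate 1 and without replicate 2 of mir550-3p, PSMD14 (1.65 and 1.45), ZRANB1 (1.498 and 1.51), UBE2S (-2.30 and -1.61) and WDR20 (1.39 each) were not called, and UBE2Z was not without replicate 2 (1.77). The WDR20 call ended, too, with replicate 2 left out for mir1180-3p (1.28), mir1271-5p (1.35) or mir3613-5p (1.37). It also ended with upper-quartile scaling (1.27, adjusted p = 0.0523). Against mir1301-3p alone, the other miRNA of the same style of description, WDR20 was not called either (1.14, adjusted p = 0.104). With mir1301-3p left out of the reference WDR20 (1.45, adjusted p = 0.0556) and UBE2S (-1.76, adjusted p = 0.0601) were not called.

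With mir1301-3p the list of other deubiquitinases had 1 higher and 4 lower of 41, beside 11.5% and 4.39% of all genes. ATXN3L (1.92), whose counts are uncertain because it is a copy of ATXN3, was higher, and COPS6 of the COP9 signalosome (-1.17, adjusted p = 0.0236) and ZRANB1 (-1.01, adjusted p = 0.0301) were lower. Of the cofactors GMPS, a partner of USP7, was lower (-1.02) and G3BP2 of stress granules higher (1.18), with USP7 itself at -0.01. The E2 list of 35 had 3 higher, with UBE2E3 (0.96) and UBE2S (1.18) among them, and 2 lower, with UBE2J2 (-1.09) among them. Without replicate 1 and without replicate 2 of mir1301-3p, ATXN3L (2.06 and 1.74), COPS6 (-0.93 and -1.47), ZRANB1 (-1.15 and -0.89), GMPS (-1.16 and -0.90), G3BP2 (0.92 and 1.39), UBE2E3 (0.72 and 1.15), UBE2S (1.65 and 0.45) and UBE2J2 (-1.28 and -0.93) were not called. Leaving out replicate 1 of mir1180-3p ended the calls of G3BP2 (1.10), GMPS (-1.03), ZRANB1 (-0.99) and UBE2J2 (-1.05). Replicate 1 of mir550-3p did so for G3BP2 (1.16), GMPS (-1.05), ZRANB1 (-1.02) and UBE2J2 (-1.15), and replicate 2 for G3BP2 (1.17), GMPS (-1.01) and UBE2J2 (-1.03). UBE2J2 also lost its call without replicate 2 of mir1260a-5p (-1.05), replicate 1 of mir1271-5p (-0.9997) or replicate 1 or 2 of mir3613-5p (-1.10 and -1.04). With upper-quartile scaling GMPS (-0.62, adjusted p = 0.121), UBE2J2 (-0.68, adjusted p = 0.147) and ZRANB1 (-0.60, adjusted p = 0.0838) were not called. Against mir550-3p alone, the other miRNA of the same style of description, G3BP2 (1.19, adjusted p = 0.11), GMPS (-0.98, adjusted p = 0.0788) and UBE2E3 (0.75, adjusted p = 0.142) were not. DESeq2 did not call ATXN3L (1.91, adjusted p = 0.057). The comparisons of mir550-3p and mir1301-3p each hold the other miRNA in the reference.

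With mir1180-3p, where 1.92% of all genes were higher, OTUD7A of the OTU family was the 1 of 41 called (2.21, adjusted p = 0.0135) and UBE2Q1 the 1 of 35 (1.15, adjusted p = 0.0093); OTUD7A averaged 6.72 ± 5.36 CPM and was at 0.95 and not called without replicate 1, and UBE2Q1 was not called without replicate 1 (1.03) or replicate 2 (1.26) of mir1180-3p. With mir1271-5p, where 0.606% of all genes were higher, STAMBPL1, an endosomal deubiquitinase, was the 1 of 41, at 82.8 ± 0.686 CPM against 24.5 (1.85, adjusted p = 0.00973), a call that ended without replicate 1 (1.82) or replicate 2 (1.88). For mir124-3p Solid, beside 7.31% of all genes higher and 1.58% lower, the splicing factor PRPF8 (2.48) and PAN2 (1.89), a deadenylase with an inactive USP fold, were the 2 of 41, and UBA1 (1.85), the main E1 enzyme, and SAE1 (1.53), a subunit of the SUMO E1, the 2 of 11. Its E2 list had 3 higher, UBE2NL (3.03, a copy of UBE2N, so uncertain), UBE2J2 (1.70) and UBE2M (1.79), and 2 lower. UBE2NL stood at 6.45 CPM in Solid but averaged 0 CPM in the Illumina libraries. UBE2M stood at 44.7 CPM in Solid and averaged 165 CPM in Illumina.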

How the data were processed

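The authors deposited 1 table of raw read counts per RefSeq mRNA, with 1 column for each of 16 libraries; the build hg19 and the tool TopHat2 are listed, with no role, per the submitters' processing notes. The version of TopHat2, the tool that counted reads, use of strand and the annotation are not stated in the sources used here. All values are whole numbers. Of the 51 USP entries 48 matched a RefSeq name table by accession, all with unchanged symbols; transcript lengths were not used here, so CPM of different genes show the counts behind them and not which gene is more abundant.

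The test was edgeR's robust quasi-likelihood fit (edgeR 4.0.16 and limma 3.58.1 in R 4.3.3) on counts filtered with filterByExpr and scaled with TMM. Contrasts of group means were tested two-sided on the whole table, and called means a p under 0.05 after Benjamini-Hochberg adjustment across every gene tested (17658 for the 6 miRNAs, 18135 for mir124-3p Solid, 18271 for Illumina against Solid). Adjusted p-values are from edgeR unless DESeq2 (1.42.0) is named. Each of the 6 miRNAs was compared with the other 5, mir124-3p Solid against the 6, and Illumina against Solid; a group of 1 library was assumed to vary like the others. The common biological coefficient of variation was 0.350 in the 12 libraries. CPM were scaled over all 16 libraries, and a CPM is given with the SD over libraries. A log2 fold change is given with a standard error derived from the test. This is the absolute log2 fold change divided by the square root of the F statistic. Ratios between replicates used CPM + 0.5.

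Named were every member called, the 3 members with the smallest p and a mean of at least 5 CPM in each comparison, the histone and proteasome groups, and up to 3 called genes by adjusted p from each list of the ubiquitin system; 1 such gene is not reported here. The members, the role groups and the lists were chosen with earlier results of these data known. Alternatives were upper-quartile scaling, DESeq2, no filter, a replicate block, other references and leaving out each library. The fits were also checked on simulated counts with 200 genes changed. Of simulated 2-fold changes between 0% (Illumina against Solid) and 15% (mir550-3p) were recovered, and of 4-fold changes between 24% (Illumina against Solid) and 74% (mir1301-3p). False calls made up between 2.25% (mir550-3p) and 15.9% (the test among the 6 miRNAs) of calls. A member that was not called is therefore not shown to be unchanged.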

Additional observations from a re-analysis of the deposited data

How the results depend on the processing

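Counts of USP genes called moved with the processing as follows. With upper-quartile scaling they were 4 for mir1180-3p (1 in the report), 9 for mir1301-3p (5) and 6 among the 6 miRNAs (3). With DESeq2 they were 4 for mir1180-3p, 8 for mir1301-3p, 1 for mir3613-5p (0), 12 among the 6 miRNAs and 17 for mir124-3p Solid (11), while mir550-3p had 2 higher and 1 lower and the Illumina libraries 2 higher and 5 lower. Without the filter on low counts they were 4 for mir1180-3p and 5 among the 6. With mir1301-3p left out of the reference they were 2 for mir1180-3p and 0 for mir550-3p (2). With a reference of the same naming style, which for mir550-3p is mir1301-3p alone, they were 2 and 4. Over all genes, upper-quartile scaling shifted the median on the log2 scale by 0.16 for mir1180-3p, -0.19 for mir3613-5p, -0.12 for mir550-3p, -0.18 for mir124-3p Solid and 0.12 for Illumina against Solid, and DESeq2 moved the last by 0.33.

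The main fits did not pair the libraries by replicate title. Over 15 pairs of miRNAs the correlation of the differences between replicates lay between -0.14 and 0.36, with 6 above 0.1. With the replicate block 2 members were called for mir1180-3p, with USP14 added (0.89, adjusted p = 0.0398), and 5 among the 6 miRNAs; USP35 was not called for mir124-3p Solid (1.75, adjusted p = 0.0502).

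Leaving out each library in turn, the counts ran from 1 to 4 for mir1180-3p, 1 to 2 for mir1271-5p, 0 to 11 for mir1301-3p, 0 to 3 for mir550-3p, 1 to 7 among the 6 miRNAs, 7 to 12 for mir124-3p Solid and 5 to 6 for Illumina against Solid, and stayed at 0 for mir1260a-5p and mir3613-5p. Of the genes named, 2 turned sign: USP20 with mir1271-5p (-2.24 without replicate 2, 3.36 without replicate 1) and USP45 with mir1260a-5p (-0.0041 without replicate 1, 0.84 without replicate 2). The calls of USP51 with mir1271-5p and of USP31 with mir1180-3p held under every alternative run. The cause of these moves was not tested.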
